A study of Homo sapiens with 5 samples.

Results

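The EGFR family ligands are the secreted or membrane-anchored growth factors that bind the ERBB receptors. In the deposited gene table, the entries named AREG, EREG, TGFA, HBEGF, BTC, EPGN, EGF, NRG1, NRG2 and NRG4 were taken, which gave 10 ligands among 37181 entries. EREG had 2 entries, of which that with the higher mean was used, and the other ligands had 1 each. RNA sequencing was performed on parental HCC827 cells, a gefitinib-sensitive human lung adenocarcinoma line, and on gefitinib-resistant HCC827/GR cells, which were derived from them under stepwise rising doses of gefitinib for over 6 months. Both are labelled with an exon 19 deletion. There were 3 HCC827/GR libraries (replicates 1, 2 and 3) and 2 HCC827 libraries (replicates 2 and 3), all from 1 resistant line and its parent. Nothing states that they came from separate cultures, so the p-values measure only the spread between these libraries, which may be technical.

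Each ligand is made as a precursor that spans the membrane, from which a metalloprotease, most often ADAM17 or ADAM10, cuts the active EGF-like domain. EGF, TGFA, AREG and EPGN bind EGFR. EREG, HBEGF and BTC bind EGFR and also ERBB4, whereas the neuregulins bind ERBB3 or ERBB4. Several of these ligands, AREG and EREG above all, are known to be made by lung adenocarcinoma cells themselves, and gefitinib acts downstream of them by blocking the EGFR kinase.

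EPGN, EREG, AREG and BTC lie next to each other on chromosome 4 within 486.2 kb, with no other protein-coding gene of GENCODE release 29 between them. EREG and AREG point the same way with 56.4 kb between them, and BTC lies 289.8 kb farther on in the opposite orientation. The upstream windows of the abundant EREG, of AREG and BTC, and of HBEGF are shown because EREG had the highest level of the ligands and AREG, HBEGF and BTC had the largest differences between the cell lines on the log2 scale among the ligands tested. They come from the RefSeq promoter table (GRCh38.p14), on the strand of each gene, and were shortened to the bases that lie outside the GENCODE gene. They span chr4:74364895-74365142 on the plus strand for EREG, chr4:74444886-74445133 on the plus strand for AREG, chr4:74794687-74794773 on the minus strand for BTC and chr5:140346632-140346853 on the minus strand for HBEGF. Capitals mark the TATA box, with the letters TATAAA, and in AREG the cAMP response element, with the letters TGACGTCA.
EREG: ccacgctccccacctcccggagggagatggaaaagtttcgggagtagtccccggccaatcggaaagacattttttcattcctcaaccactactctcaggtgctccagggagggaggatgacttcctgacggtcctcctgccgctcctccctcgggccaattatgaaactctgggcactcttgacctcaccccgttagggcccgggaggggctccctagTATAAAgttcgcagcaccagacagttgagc
AREG: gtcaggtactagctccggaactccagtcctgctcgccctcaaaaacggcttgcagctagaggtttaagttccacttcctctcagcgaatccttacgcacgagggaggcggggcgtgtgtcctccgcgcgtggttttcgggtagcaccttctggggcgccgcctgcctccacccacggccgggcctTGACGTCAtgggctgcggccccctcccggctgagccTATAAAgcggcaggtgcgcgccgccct
BTC: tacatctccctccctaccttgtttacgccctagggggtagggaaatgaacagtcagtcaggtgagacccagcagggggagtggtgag
HBEGF: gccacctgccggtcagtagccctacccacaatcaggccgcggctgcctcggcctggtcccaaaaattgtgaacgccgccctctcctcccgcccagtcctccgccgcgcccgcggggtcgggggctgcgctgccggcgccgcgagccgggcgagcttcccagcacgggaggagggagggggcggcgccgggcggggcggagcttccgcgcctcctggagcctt

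The TATA box began 30 bases before the end of the EREG window and 27 bases before the end of the AREG window. The cAMP response element of AREG began 63 bases before the end of its window. The third motif searched, TGAGTCA (an AP-1 site), does not overlap with these and was matched in none of the 4 printed windows. Over the 250 upstream bases of the 35116 promoters in the table, searched on both strands, 10.7% held TATAAA, 1.65% held TGACGTCA and 4.20% held TGAGTCA. The BTC and HBEGF windows held none of the 3 motifs, which says only that these letters are not in them, and a match is a description of the letters and not of a bound factor.

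The values are FPKM (fragments per kilobase of transcript and scaled to the mapped fragments of the library), which are scaled by length and can be set side by side between genes. They carry no read counts, so the depth of each library and the counting error are unknown. The epithelial label was checked with EPCAM, KRT8, KRT18, KRT19 and CDH1, with none of the 5 at 0. Their summed level was 442.7 to 572.7 FPKM in HCC827/GR libraries and 1063 to 1182 FPKM in HCC827 libraries. Of the 5, 4 were lower in HCC827/GR cells at an adjusted p under 0.05 (limma), beside 5.71% of all entries tested, and 0 were higher. EPCAM averaged 8.88 FPKM in HCC827/GR and 79.8 FPKM in HCC827 cells, and CDH1 averaged 7.22 and 30.3 FPKM. KRT7, also listed, had no entry of its own. Of 12 markers of immune, endothelial, stromal and blood cells, 10 had an entry, and their sum was 0.672 to 1.12 FPKM in HCC827/GR libraries and 4.08 to 5.52 FPKM in HCC827 libraries. PECAM1, which has 10 entries in the table, made up most of the latter and was at 0 in every HCC827/GR library. COL1A1 averaged 0.704 FPKM in HCC827/GR and 0.562 FPKM in HCC827 cells, whereas PTPRC, VWF and CDH5 were near 0 in every library. The part of these differences in the ligand results was not tested.

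Most of the ligand mRNA was EREG in both cell lines, and BTC was lower in HCC827/GR cells. The libraries of AREG, HBEGF and NRG1 did not overlap between the cell lines, but these ligands did not pass the test. Of the 10 ligands, 6 (EREG, AREG, TGFA, BTC, HBEGF and NRG1) reached a mean of 0.5 FPKM over the 5 libraries and were tested. EGF, EPGN, NRG2 and NRG4 stayed under this level and were given no test. With limma on log2(FPKM + 1) and Benjamini-Hochberg adjustment over 16189 entries, 1 of the 6 had an adjusted p under 0.05 and was lower, and 0 were higher. Over all entries tested, 11.0% had an adjusted p under 0.05, 5.26% as higher and 5.71% as lower in HCC827/GR cells. At an unadjusted p under 0.05 were 3 of the 6 ligands (HBEGF, AREG and BTC), beside 27.2% of all entries tested. When a 2-fold change in either direction and an unadjusted p under 0.05 were required instead, HBEGF was higher and BTC was lower, where 2.96% and 3.97% of all entries passed in these directions. The libraries of the groups did not overlap in 4 of the 6 ligands tested, against 46.3% of all entries tested. The median log2 change of the 6 was 0.03, beside 0.0014 for all entries tested. In such bulk samples, a smaller number of cells that make a ligand and less of its mRNA in each cell cannot be told apart.

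**Figure D1:**
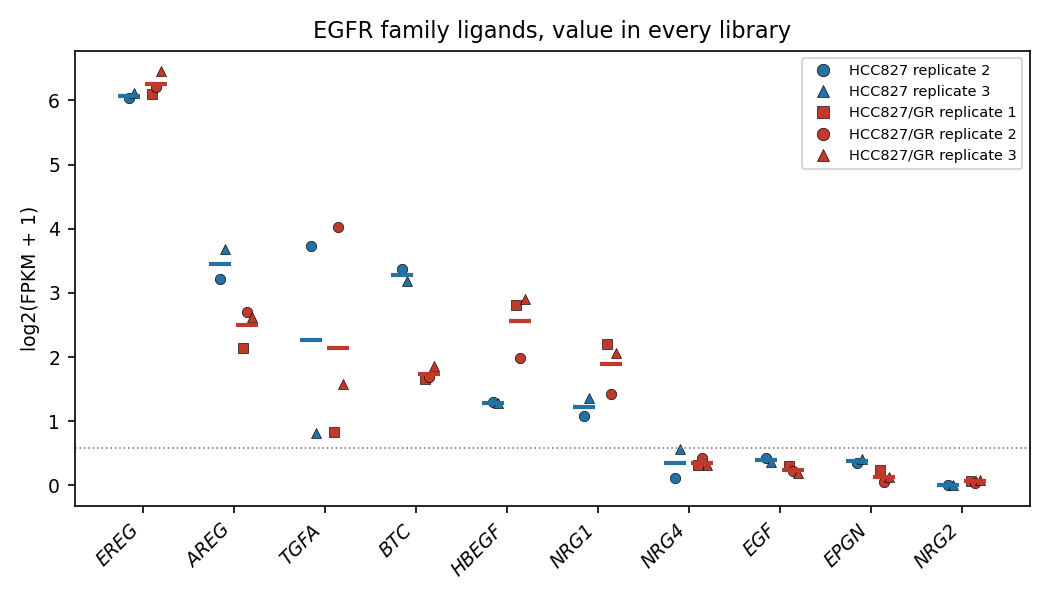
Level of each EGFR family ligand in each library, as log2(FPKM + 1), in order of mean FPKM. Points are libraries, short lines are means of the log2 values and the dotted line is 0.5 FPKM. EREG lies far above the other ligands, BTC and AREG lie lower and HBEGF and NRG1 higher in every HCC827/GR library, and TGFA is spread widely in both cell lines. Of the tested ligands, only BTC passed the test.

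EREG, which encodes epiregulin, lies on chromosome 4 of GRCh38 from 74365143 to 74388751. Its level was 67.8, 73.2 and 86.5 FPKM in HCC827/GR replicates 1, 2 and 3, and 64.4 and 68.3 FPKM in HCC827 replicates 2 and 3. HCC827/GR replicate 1 fell between the HCC827 libraries, so the groups overlapped. The means were 75.8 ± 9.62 FPKM (SD, n = 3) and 66.4 ± 2.74 FPKM (SD, n = 2). On the log2 scale the groups differed by 0.18 (limma, standard error 0.14, 95% interval from -0.17 to 0.53, adjusted p = 0.450), which leaves room for a rise or a small fall. By mean level, EREG stood above 98.7% of the entries tested. Its second entry, an assembled locus, had 2.21% of the mean level of the first.

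AREG, which encodes amphiregulin, lies beside it from 74445134 to 74455009. Its level was 3.43, 5.54 and 5.18 FPKM in HCC827/GR replicates 1, 2 and 3, and 8.28 and 11.8 FPKM in HCC827 replicates 2 and 3. The highest HCC827/GR value stayed under the lowest HCC827 value. The means were 4.71 ± 1.13 FPKM (SD, n = 3) and 10.1 ± 2.52 FPKM (SD, n = 2), a ratio of 2.13 in favour of HCC827. The log2 change was -0.95 (standard error 0.24, 95% interval from -1.58 to -0.33), but after adjustment over all entries it did not pass (limma, adjusted p = 0.0768, and 0.0670 to 0.258 over the alternatives). The exact permutation test (two-sided, on the difference of mean FPKM) gave p = 0.1 for AREG and for BTC, which is the smallest p that 3 libraries against 2 allow, so this test cannot pass 0.05 here.

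BTC, which encodes betacellulin, lies on the minus strand of chromosome 4 from 74744759 to 74794686. Its level was 2.14, 2.22 and 2.64 FPKM in HCC827/GR replicates 1, 2 and 3, against 9.33 and 8.10 FPKM in HCC827 replicates 2 and 3. The groups were far apart and the replicates close together. BTC fell by 1.54 on the log2 scale (standard error 0.12, 95% interval from -1.85 to -1.23, adjusted p = 0.00574 from limma). The ratio of the mean FPKM was 3.73 in favour of HCC827, which is larger than the change on the log2(FPKM + 1) scale because the added 1 shrinks the change of low values. The call was kept with each library left out in turn, and was lost in Ballgown's model (adjusted p = 0.162), which called 4 entries higher and 9 lower in all.

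Within the chromosome 4 cluster, BTC passed the test, and EREG and AREG did not. The EREG to AREG ratio of FPKM was 19.8, 13.2 and 16.7 in HCC827/GR replicates 1, 2 and 3, and 7.78 and 5.77 in HCC827 replicates 2 and 3. All HCC827/GR ratios were above both HCC827 ratios. EPGN, which encodes epigen and lies from 74308473 to 74315307, had 0.175, 0.0323 and 0.0910 FPKM in HCC827/GR cells and 0.273 and 0.324 FPKM in HCC827 cells, levels at which it was not tested. Of the 10 neighbours on either side that were fixed as a list, 9 had an entry and 6 were tested. Of these, 0 passed in either direction (limma, median log2 change -0.10), and 0 had an unadjusted p under 0.05. Over all entries tested the shares were 11.0% and 27.2%, and 6 genes are too few to be set apart from them. USO1, the neighbour with the highest level, and MTHFD2L were named after their values were seen. USO1 had a log2 change of 0.03 (standard error 0.11). MTHFD2L, directly before EPGN, had -0.24 (standard error 0.11, adjusted p = 0.241). G3BP2 had no entry of its own, since its transcripts were joined to a locus named Y_RNA.

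**Figure D2:**
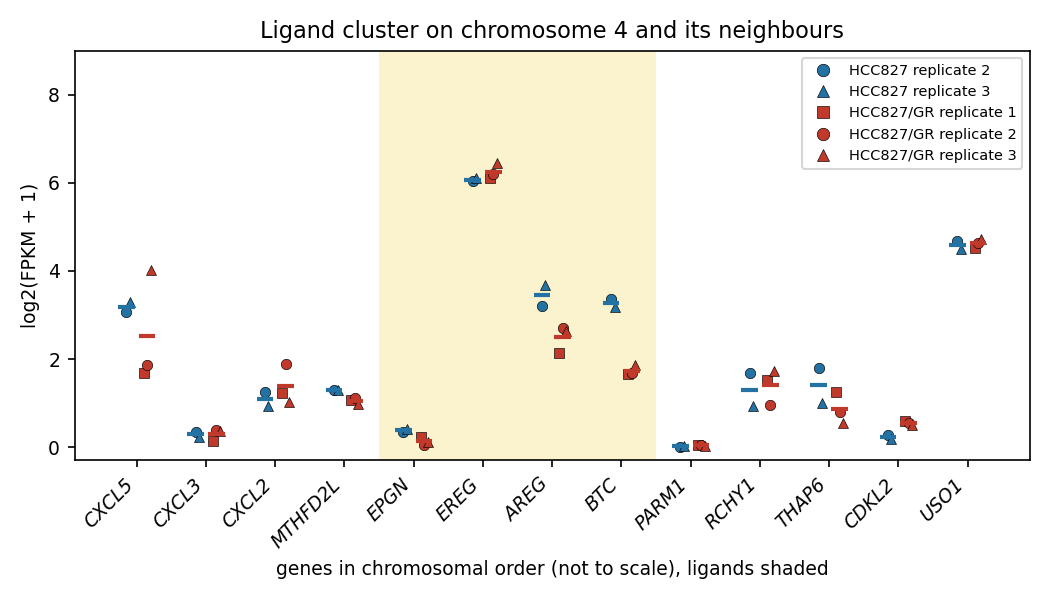
Levels of the chromosome 4 ligands (shaded) and their neighbours in chromosomal order, as log2(FPKM + 1) per library, with short lines for the means of the log2 values. AREG and BTC are lower in every HCC827/GR library, while EREG and the outer neighbour USO1 overlap between the cell lines. At lower levels, EPGN and MTHFD2L are also lower and CDKL2, named after its values were seen, is higher in every HCC827/GR library. MTHFD2L did not pass (adjusted p = 0.241 from limma), and EPGN and CDKL2 were not tested. The libraries of the groups did not overlap in 46.3% of all entries tested.

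HBEGF, which encodes heparin-binding EGF-like growth factor, also known as the receptor of diphtheria toxin in its precursor form, lies on the minus strand of chromosome 5 from 140332843 to 140346631. Its level was 6.00, 2.98 and 6.47 FPKM in HCC827/GR replicates 1, 2 and 3, and 1.46 and 1.43 FPKM in HCC827 replicates 2 and 3. Every HCC827/GR library was above the HCC827 libraries, and replicate 2 was the lowest of the HCC827/GR libraries. The ratio of the mean FPKM was 3.56 in favour of HCC827/GR. The log2 change was 1.28 (standard error 0.31, 95% interval from 0.48 to 2.07) with an adjusted p of 0.0688 from limma. Without HCC827/GR replicate 2 it was 1.56 and the adjusted p from limma was 0.0223. Over all alternatives it ran from 0.0223 to 0.407.

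The ratios between these ligands were compared within each library, without a test. AREG had 5.66 and 8.30 times the FPKM of HBEGF in HCC827 replicates 2 and 3, but 0.571, 1.86 and 0.801 times in HCC827/GR replicates 1, 2 and 3. The BTC to HBEGF ratio was 6.38 and 5.68 in HCC827 cells and 0.357, 0.747 and 0.408 in HCC827/GR cells. Thus BTC exceeded HBEGF in both HCC827 libraries and was below it in all HCC827/GR libraries.

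TGFA, which encodes transforming growth factor alpha, lies on the minus strand of chromosome 2 from 70447280 to 70554193. Its level was 0.782, 15.2 and 1.98 FPKM in HCC827/GR replicates 1, 2 and 3, and 12.3 and 0.751 FPKM in HCC827 replicates 2 and 3. The highest library exceeded the lowest 19.5-fold in HCC827/GR cells and 16.4-fold in HCC827 cells, and replicate 2 was the high library in both. No statement on a difference between the cell lines was possible, since the log2 change of -0.13 had a 95% interval from -3.54 to 3.28. Without HCC827 replicate 2 the change was 1.34, and without HCC827/GR replicate 1 or 3 it was 0.53 or 0.16. The TGFA entry joins 9 Ensembl transcripts and 5 transcripts assembled by StringTie, the most assembled transcripts of any ligand. Only 20 of the 16189 entries tested, TGFA included, had within each cell line a range at least as wide on the log2(FPKM + 1) scale (2.92 in HCC827 and 3.19 in HCC827/GR). A rise of at least 2 log2 units in both replicate 2 libraries over the other libraries of their group was found in 5 entries, which were TGFA, DNAJB4, AC010336.1, AC012073.1 and AC135178.3, named after their values were seen. Whether the assembly of transcripts has a part in the TGFA values was not tested.

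**Figure D3:**
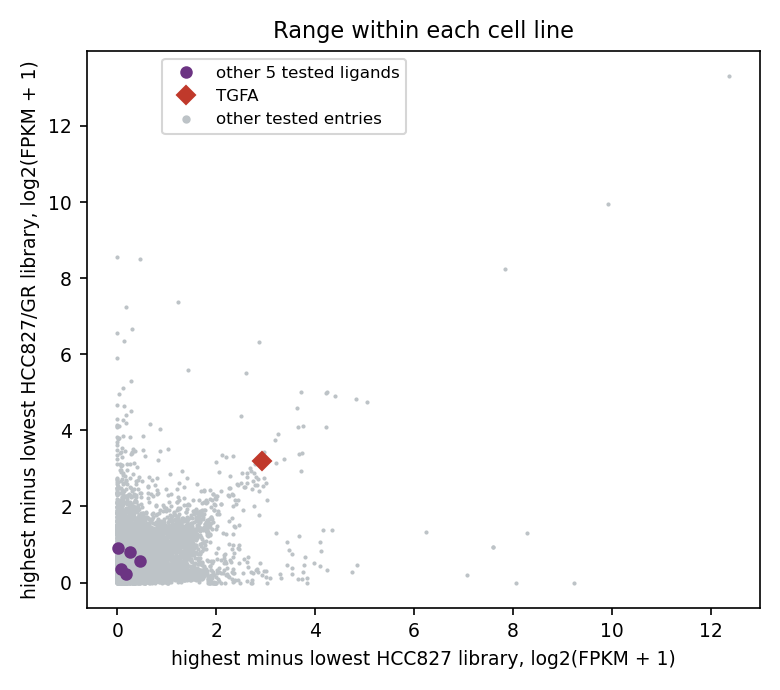
Range between the highest and the lowest library within HCC827 (x axis) and within HCC827/GR (y axis), in log2(FPKM + 1), for every entry tested. TGFA, at 2.92 and 3.19, lies apart from the other 5 tested ligands, whose range stays under 1 in both cell lines.

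NRG1, which encodes neuregulin 1, a ligand of ERBB3 and ERBB4, was the only neuregulin above 0.5 FPKM on average. Its gene lies on chromosome 8 from 31639386 to 32767959. Its level was 3.63, 1.67 and 3.18 FPKM in HCC827/GR replicates 1, 2 and 3, and 1.12 and 1.56 FPKM in HCC827 replicates 2 and 3. The groups did not overlap, although HCC827/GR replicate 2 lay close to HCC827 replicate 3. The log2 change was 0.68 (standard error 0.27, 95% interval from -0.04 to 1.39, adjusted p = 0.202 from limma). The entry joins 12 Ensembl and 4 assembled transcripts, so the values do not tell its many isoforms apart.

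The ligands with little or no mRNA were EGF, EPGN, NRG4 and NRG2. EGF, which encodes the founding ligand of the family, lies on chromosome 4 from 109912884 to 110012266, outside the cluster. It had 0.231, 0.170 and 0.144 FPKM in HCC827/GR cells and 0.345 and 0.289 FPKM in HCC827 cells. NRG4, a ligand of ERBB4 on chromosome 15 (75935969 to 76059795), had 0.250, 0.338 and 0.246 FPKM in HCC827/GR cells and 0.0855 and 0.486 FPKM in HCC827 cells. NRG2, a ligand of ERBB3 and ERBB4 on chromosome 5 (139846779 to 140043299), had 0.0508, 0.0261 and 0.0632 FPKM in HCC827/GR cells while it was listed at 0 in HCC827 replicates 2 and 3. The libraries of the groups did not overlap for EGF, EPGN and NRG2, but at these levels no fold change was taken as a difference between the cell lines. The remaining neuregulin gene, NRG3, was not analysed here.

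In HCC827 cells, the order of the mean levels was EREG, AREG, BTC, TGFA, HBEGF, NRG1, EGF, EPGN, NRG4 and NRG2. Within it, AREG and BTC overlapped, HBEGF and NRG1 overlapped, EGF, EPGN and NRG4 overlapped, and TGFA had no firm place. In HCC827/GR cells, the order was EREG, TGFA, HBEGF, AREG, NRG1, BTC, NRG4, EGF, EPGN and NRG2. There, HBEGF overlapped with AREG and with NRG1, AREG with NRG1 and NRG1 with BTC. EPGN overlapped with EGF and with NRG2, and TGFA again had no firm place. EREG stood above the next ligand in every library.

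The total over the EGFR-binding ligands overlapped between the cell lines. EREG, AREG, TGFA, BTC, HBEGF, EGF and EPGN summed to 80.6, 99.3 and 103.0 FPKM in HCC827/GR replicates 1, 2 and 3, and to 96.4 and 91.0 FPKM in HCC827 replicates 2 and 3. EREG took 80.3%, 72.2% and 81.2% of the FPKM of all 10 ligands in HCC827/GR replicates 1, 2 and 3, and 66.0% and 73.4% in HCC827 replicates 2 and 3. AREG took 4.05% to 5.46% in HCC827/GR libraries and 8.48% and 12.7% in HCC827 libraries. HBEGF took 2.94% to 7.10% in HCC827/GR libraries and 1.50% and 1.53% in HCC827 libraries, and BTC took 2.19% to 2.53% and 9.55% and 8.70%.

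**Figure D4:**
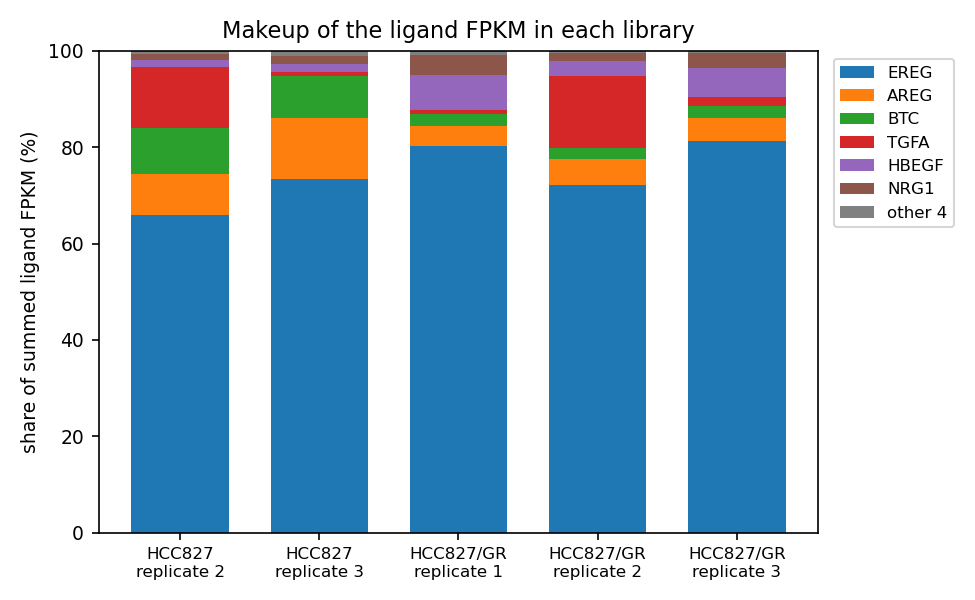
Share of each ligand in the summed FPKM of the 10 ligands, in percent, for each library. EREG takes 66.0% to 81.2% of every bar, the AREG and BTC shares are smaller and the HBEGF share is larger in the HCC827/GR bars, and TGFA is visible mainly in both replicate 2 libraries.

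Of the receptors, EGFR was lower in HCC827/GR cells, with 7.82, 5.78 and 3.52 FPKM in replicates 1, 2 and 3 against 70.8 and 56.4 FPKM in HCC827 replicates 2 and 3. It fell by 3.31 on the log2 scale (standard error 0.31, adjusted p = 0.00926 from limma), and the adjusted p was 0.0705 without HCC827 replicate 2 and 0.0565 without HCC827 replicate 3. The summed FPKM of the EGFR-binding ligands was 10.3, 17.2 and 29.3 times that of EGFR in HCC827/GR replicates 1, 2 and 3, and 1.36 and 1.62 times in HCC827 replicates 2 and 3. These ratios did not overlap, and the ligand sums on their own did. ERBB2, the partner receptor with no ligand of its own, had 9.81 ± 1.35 FPKM (SD, n = 3) and 11.4 ± 0.865 FPKM (SD, n = 2), with a log2 change of -0.21 (adjusted p = 0.423). ERBB4 had 0.0437 and 0.0540 FPKM on average and was not tested. ERBB3 had no entry of its own, because its transcripts were joined to those of PA2G4 in an assembled locus that had 9.61 to 10.3 FPKM in HCC827/GR libraries and 17.3 to 20.3 FPKM in HCC827 libraries, and the genes cannot be told apart in this value.

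Of 12 genes that process or traffic the ligands, 10 were tested and 0 passed in either direction (limma, median log2 change 0.11). Over all entries tested, 11.0% passed. At an unadjusted p under 0.05 was 1 of the 10, beside 27.2% of all entries tested. It was ADAM12, with 0.983 FPKM in HCC827/GR and 0.241 FPKM in HCC827 cells on average (log2 change 0.66, adjusted p = 0.104 from limma). It reached the test only through its level in HCC827/GR cells. ADAM17, the main sheddase of AREG, EREG, TGFA and HBEGF, averaged 21.3 ± 1.29 FPKM (SD, n = 3) in resistant and 18.9 ± 2.43 FPKM (SD, n = 2) in parental cells, with a log2 change of 0.16 (standard error 0.12). ADAM10, the main sheddase of BTC and EGF, had 15.9 ± 4.01 and 13.4 ± 2.93 FPKM, with a log2 change of 0.22 (standard error 0.24). ADAM9 was the most abundant of the list, with 77.8 ± 17.5 and 54.8 ± 6.95 FPKM (log2 change 0.48, adjusted p = 0.255). ADAM17, ADAM10 and ADAM9 were named for their role, and ADAM12 for its unadjusted p, after their values were seen.

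Among 12 genes listed for the damping or turnover of the receptors, all were tested. Of these, 1 was higher and 2 were lower in HCC827/GR cells (median log2 change -0.10), where 5.26% and 5.71% of all entries passed in these directions. At an unadjusted p under 0.05 were 5 of the 12, beside 27.2% of all entries tested. LRIG1, which promotes the degradation of ERBB receptors, rose by 1.22 (adjusted p = 0.0208), from 0.256 ± 0.0559 FPKM (SD, n = 2) to 1.95 ± 0.492 FPKM (SD, n = 3). Both HCC827 libraries were under 0.5 FPKM, so LRIG1 reached the test only through its level in HCC827/GR cells. Its call was lost without the filter (limma, adjusted p = 0.0540) and was kept in 7 of the 14 alternatives. CBLC, a ubiquitin ligase of the CBL family, fell by 1.67 (adjusted p = 0.0100), and RNF41, a ubiquitin ligase that acts on ERBB3, fell by 0.65 (adjusted p = 0.0345). The calls of LRIG1, CBLC and RNF41 were lost in Ballgown's model and with the replicate block. Without single libraries some of these calls were lost. For LRIG1 the adjusted p was 0.0716 without HCC827/GR replicate 1, 0.0548 without HCC827/GR replicate 2, and 0.112 and 0.0945 without HCC827 replicates 2 and 3. For CBLC it was 0.0638 without HCC827 replicate 2. For RNF41 it lay between 0.0637 and 0.145 whichever of the 5 libraries was left out. ERRFI1, which encodes the EGFR inhibitor MIG6 and was named after its values were seen, was at 12.7, 3.28 and 3.15 FPKM in HCC827/GR replicates 1, 2 and 3 and 37.9 and 35.4 FPKM in HCC827 replicates 2 and 3. Its log2 change of -2.59 had a standard error of 0.59 and did not pass (adjusted p = 0.0602).

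Of 12 receptor adaptors, 11 were tested, of which 2 were lower and 0 were higher (limma, median log2 change 0.03). Over all entries tested, 5.71% passed as lower and 5.26% as higher. At an unadjusted p under 0.05 were 4 of the 11, 1 of them with a positive change, beside 27.2% of all entries tested. GRB7, an adaptor of ERBB2, fell by 1.93 (standard error 0.13, adjusted p = 0.00469), from 13.3 ± 2.04 FPKM (SD, n = 2) to 2.73 ± 0.277 FPKM (SD, n = 3). The GRB7 call was lost in Ballgown's model (adjusted p = 0.151) and with the replicate block (adjusted p = 0.121 from limma). EPS8, a substrate of the EGFR kinase, fell by 0.79 (adjusted p = 0.0337), a call that was lost whichever of the 5 libraries was left out, with adjusted p from 0.0708 to 0.126. GRB2, which links the receptors to RAS and was named after its values were seen, had 9.51 ± 3.66 and 12.7 ± 1.19 FPKM in HCC827/GR and HCC827 cells (adjusted p = 0.441). PLCG1 had no entry of its own.

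**Figure D5:**
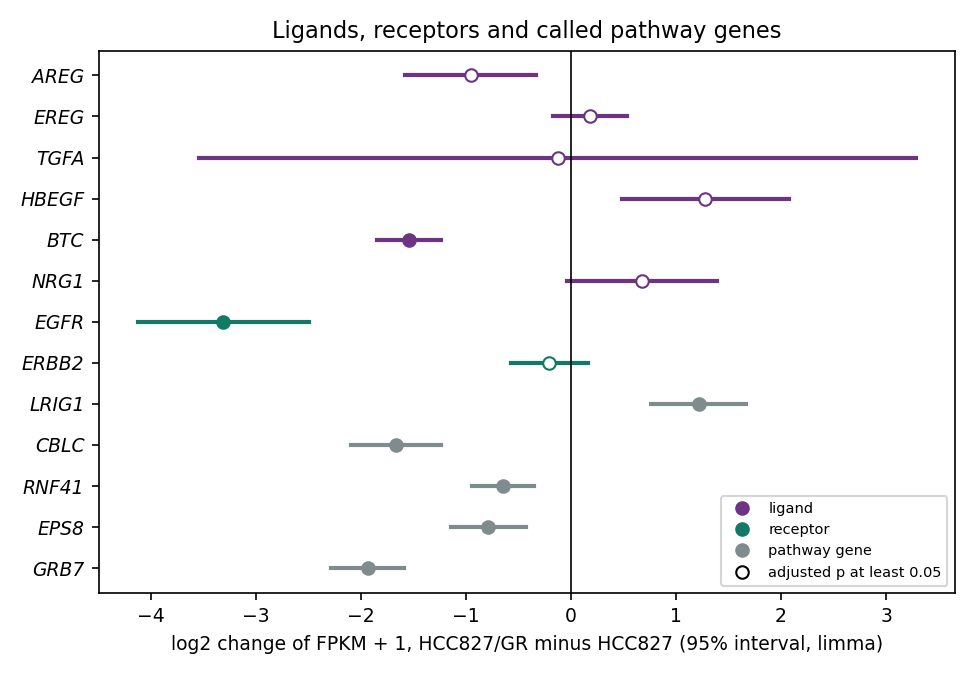
Change of log2(FPKM + 1), HCC827/GR minus HCC827, with its 95% interval from limma, for the tested ligands, the tested receptors and the pathway genes that passed the test. Filled points have an adjusted p under 0.05. BTC is the ligand with a filled point, at -1.54, and the interval of TGFA, from -3.54 to 3.28, is the widest.

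The entries whose values most resembled those of EREG and AREG were sought among all entries tested with a gene name, by the root mean square difference of log2(FPKM + 1), centred on the mean of each entry, over the 5 libraries. For EREG they were AC012085.1 (0.0160), BAG2 (0.0266) and ERC1 (0.0278). A difference under 0.1 from EREG was found in 467 entries, so such a pattern was common. For AREG they were KIAA1671 (0.0905), CD274, which encodes the checkpoint ligand PD-L1 (0.111), and SLC22A18AS (0.119), and KIAA1671 was the only entry under 0.1. The level of KIAA1671 was 2.85, 4.91 and 4.08 FPKM in HCC827/GR replicates 1, 2 and 3 and 8.06 and 9.64 FPKM in HCC827 replicates 2 and 3. With 5 libraries that fall into 2 groups, this likeness is a description only.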

How the data were processed

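The authors deposited FPKM values per gene or assembled locus, which they made with Cutadapt, FastQC, Bowtie2, TopHat2, StringTie and Ballgown. The submitters' processing notes name the build hg18, the versions are not given in the sources used here, and positions were taken from GENCODE release 29 (GRCh38) by gene symbol. The paper describes rRNA-depleted paired-end libraries, whereas the sample labels describe a small RNA kit read from 1 end, and this was not settled. A further FPKM column (1) matched no sample and was not used.

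No value was rescaled. Entries whose mean over the libraries reached 0.5 FPKM were compared by limma 3.58.1 in R 4.3.3 (lmFit, eBayes with trend, two-sided) on log2(FPKM + 1), with Benjamini-Hochberg adjustment. Where a symbol had several entries, the one with the highest mean was used. The named genes were the 10 ligands, the receptors, list genes with an adjusted p under 0.05, and the 3 entries nearest to each of the 2 most abundant ligands. Other genes were named after their values were seen, as stated beside them. The ligands and lists were chosen with earlier results of these data known. The fits were checked on simulated data. Tables and plots were made with Python 3.11.15, pandas 2.3.3 and matplotlib 3.10.9. The fit was repeated with a pseudocount of 0.1, unfiltered, with the minimum mean raised to 1 FPKM, after scaling by median ratios or quantiles, with limma's trend off, with Ballgown's model, with a replicate block, with entries of 1 symbol summed, and with each library left out.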

Additional observations from a re-analysis of the deposited data

How the results depend on the processing

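Of 182 results for single genes under 14 alternatives, 143 kept their direction and side of the threshold, 34 lost and 1 gained the call, and 4 reversed. A gene that stayed without a call counted as kept, so the 143 are not all calls that held. All losses were in called genes, with 8 each for EPS8 and RNF41, 7 for LRIG1, 4 for EGFR, 3 for CBLC and 2 each for BTC and GRB7. The 4 reversals were all TGFA, at 0.53 with the replicate block, 0.53 without HCC827/GR replicate 1, 0.16 without HCC827/GR replicate 3 and 1.34 without HCC827 replicate 2, with -1.59 without HCC827 replicate 3. BTC stayed lower in all 14 (-1.86 to -1.45) and passed in 12. Over all entries, 851 were higher and 924 lower. Without a filter 575 were higher, and leaving out each library in turn gave 181 to 450 higher and 248 to 434 lower. Ligands called higher then numbered 0 to 1, the 1 being HBEGF without HCC827/GR replicate 2. Ballgown's model called 4 higher, 9 lower and 0 ligands lower, with 2944 entries at an unadjusted p under 0.05. The cause of these shifts was not tested. Where an HCC827 library was left out, the lone one was assumed to vary like the HCC827/GR libraries.

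The replicate block called 0 entries higher, 0 lower and 0 ligands lower, with 3560 at an unadjusted p under 0.05 and BTC at -1.50 (adjusted p = 0.130 from limma). It uses 2 pairs, replicates 2 and 3. The deviations of same-numbered libraries from their group means correlated at 0.0328 and 0.0147, and no label states a pairing. Whether same-numbered libraries share more than a number was not settled, because a correlation over all entries can miss an effect on few of them. FPKM without read counts give no counting error, which limits what can be said of EGF, EPGN, NRG2 and NRG4.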
